A study of Mus musculus with 31 samples.

Results

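The AP-1 transcription factor genes were followed across Ly6C-high monocytes of mouse blood and tumor. The 10 genes were Fos, Fosb, Fosl1, Fosl2, Jun, Junb, Jund, Atf3, Batf and Maff, taken by symbol from the 24411 entries of the count table, and all 10 were found. The data are 9 RNA-seq libraries of sorted cells from C57BL/6J mice. The groups were blood of healthy mice (healthy blood, n = 3), blood of mice with a subcutaneous Lewis lung carcinoma (LLC blood, n = 3; LLC cells are a mouse lung cancer line grown as grafts) and the tumors themselves (LLC tumor, n = 3). The sort gate was CD11b+ Ly6G- Ly6C-high MHC-II- in each group, and the labels used here give no age, sex, day of tumor growth or method of tissue dissociation. The remaining 22 of the 31 samples of the series hold other assays and were not analysed here. The labels do not say whether the libraries of a group came from separate mice or pools, so p-values measure the spread between these libraries, which may be technical.

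AP-1 is a family of dimeric basic leucine zipper (bZIP) transcription factors. FOS proteins pair with JUN proteins, JUN proteins can also pair with each other, and the dimers bind short DNA sites near inflammatory and growth genes. ATF3, BATF and the small MAF proteins such as MAFF share the zipper and join the same network, in part as inhibitors. Several of the genes are immediate early genes: their mRNA rises within minutes of a stimulus, including cytokines, adhesion, heat and the mechanical or enzymatic handling of tissue. Monocytes that enter a tumor meet many such stimuli.

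Total counts were 10457492 to 20706412 per library. Levels are given as CPM (counts scaled to the library total over all entries), so they compare libraries for 1 gene and do not compare genes of different length. Fold changes come from edgeR's quasi-likelihood test on all 9 libraries, with Benjamini-Hochberg adjusted p-values over the 12337 genes tested. Genes with an adjusted p below 0.05 are referred to as called. Adjusted p-values are from that fit unless another setting is named. All 10 genes passed the filter on low counts. Of these, 9 also passed in the blood libraries alone, and Fosl1 passed only through the tumor libraries. The monocyte markers of the list used here, Ly6c2 and Ccr2 among them, had counts in each group, with summed levels of 33589 to 37510 CPM (healthy blood), 24128 to 27557 CPM (LLC blood) and 15142 to 19636 CPM (LLC tumor). Lyz2 carried most of that sum (25713 to 29077 CPM in healthy blood), and single markers went in opposite directions. Ly6c2, the gene of the gated antigen, was at 1571 to 1728 CPM in healthy blood, 1099 to 1237 CPM in LLC blood and 272 to 472 CPM in tumor. Itgam, which encodes CD11b, was at 893 to 949 CPM (healthy blood) and at 3193 to 3720 CPM (tumor), and Cd14 at 40.8 to 52.2 CPM in the blood libraries and 1378 to 2010 CPM in tumor. In bulk libraries, a change in the share of expressing cells and a change in RNA per cell cannot be told apart.

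LLC blood 1 stood apart from its group in Jun and in a small set of other genes. Of 8058 genes at 10 CPM or more in LLC blood 1, 19 were at least 2-fold above the higher of LLC blood 2 and LLC blood 3, and 11 were at least 10-fold above it. Jun was among the 11, at 25.1-fold, beside the heat shock genes Hspa1a (24.0-fold) and Hspa1b (18.1-fold) and 7 extracellular matrix genes such as Col1a1 and Col3a1. The summed level of 7 fibroblast markers was 414 CPM in LLC blood 1 against 3.67 and 4.59 CPM in the other LLC blood libraries and 6.02 to 16.9 CPM in healthy blood. Among the other AP-1 genes the same ratio was 2.50 for Fos, 1.94 for Fosb, 1.64 for Junb, 1.56 for Jund, 1.41 for Atf3, 1.02 for Batf and 0.979 for Fosl2. Of the 8511 genes whose mean over the libraries reached 10 CPM, 109 were at least 2-fold above the higher and 36 at least 2-fold below the lower of the other LLC blood libraries. The neutrophil granule gene Ltf was at 0.574 CPM in LLC blood 1 against 22.9 and 9.37 CPM, Ngp at 0.287 against 23.5 and 9.08 CPM, and Camp at 0.191 against 6.16 and 3.53 CPM. In healthy blood Ltf was at 0 to 1.35 CPM, Ngp at 0.0715 to 3.38 CPM and Camp at 0.143 to 0.860 CPM. LLC blood 1 lay within that healthy range for each of Ltf, Ngp and Camp. These genes were singled out after their values were seen. Changes of AP-1 genes that were called or lost without LLC blood 1 are given with and without it.

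Other libraries differed from their groups as well. LLC tumor 1 had a fibroblast sum of 938 CPM against 3470 and 3929 CPM in the other tumor libraries, and a TMM factor (the scaling of the library total) of 0.798 against 1.00 and 0.968. Healthy blood 2 had a B cell marker sum of 163 CPM against 17.2 and 24.0 CPM. Healthy blood 1 was the highest of its group in Fos, Fosb, Jun, Junb, Jund and Atf3, but not in the other AP-1 genes. It held 1209 CPM of Fos against 777 and 815 CPM, and 38.4 CPM of Fosb against 17.3 and 18.2 CPM. Its Hspa1a level was 981 CPM against 515 and 418 CPM.

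Levels of nearly the whole family were far higher in the tumor libraries than in the blood libraries of tumor-bearing mice. In LLC tumor against LLC blood, 9 of the 10 genes rose and 1, Batf, fell. Fosl1 entered the test only by its tumor level and so had to differ; of the 9 genes that passed the filter in blood alone, 8 rose. Over all tested genes 61.3% were called, with 29.6% higher and 31.7% lower, so a call by itself is common in this comparison. The fitted folds were between 3.43 (Junb) and 71.7 (Maff) for the genes that had counts in blood. For the same 9 genes every tumor library lay above every LLC blood library, and for Batf below. Over all tested genes 23.5% lay wholly above and 44.8% wholly below. Overlap was judged here and in the other comparisons on CPM by library total, without the TMM factors used in the fit.

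**Figure D1:**
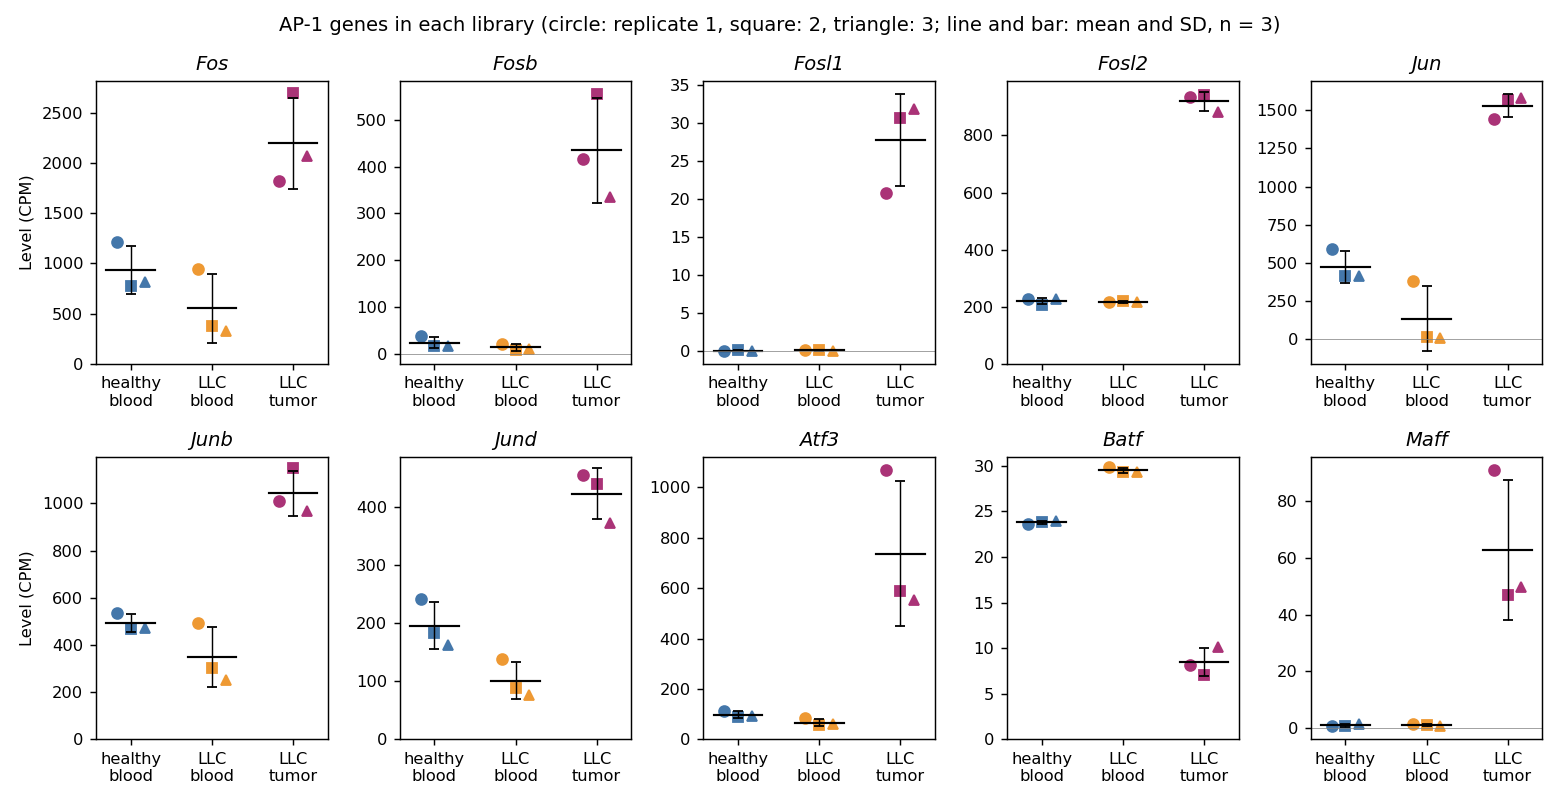
Level of each AP-1 gene in each library. The y axis is CPM with its own linear scale per gene, the x axis is the group, each symbol is a library, and the line with its bar is the mean and SD of 3 libraries. The tumor libraries are highest for every gene except Batf, and for Jun the first LLC blood library lies apart from the other two at 378 CPM.

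Among the FOS subunits, which need a partner to bind DNA, Fos itself reached 1816, 2691 and 2073 CPM in the 3 tumor libraries. It stood at 944, 377 and 330 CPM in LLC blood and at 1209, 777 and 815 CPM in healthy blood. All tumor libraries were above all blood libraries, while the blood groups overlapped because LLC blood 1 lay within the healthy range. Fos rose 4.54-fold in LLC tumor over LLC blood (log2 2.18 ± 0.38 SE, adjusted p = 0.000833) and 2.63-fold over healthy blood (log2 1.39 ± 0.37 SE, adjusted p = 0.00841). Without LLC blood 1 the rise over LLC blood was larger, at 2.80 on the log2 scale.

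Fosb, a close relative of Fos, was low in blood and far higher in tumor. Its levels were 38.4, 17.3 and 18.2 CPM in healthy blood and 22.7, 9.06 and 11.7 CPM in LLC blood. The tumor libraries held 416, 555 and 334 CPM. The rise was 35.2-fold over LLC blood (log2 5.14 ± 0.44 SE, adjusted p = 9.85e-06) and 20.0-fold over healthy blood (log2 4.32 ± 0.42 SE, adjusted p = 1.78e-05). The lowest tumor library was 8.70 times the highest healthy library.

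Fosl1 and Fosl2 encode the FRA proteins, FOS relatives that lack the strong activation domain of FOS. Fosl1 was at 20.8, 30.7 and 31.9 CPM in tumor. In blood it had at most 1.11 counts in a library, below the floor of 3 counts used here, so its folds are lower bounds: at least 130-fold higher than LLC blood and at least 143-fold higher than healthy blood, given with no test because its tumor level decided that it was tested. These floors are means over the libraries of a group and cover counting error only. The Fosl1 span overlaps Ccdc85b in the annotation and its counts were not whole numbers in 6 libraries, so reads shared with the neighbour cannot be told apart from its own.

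Fosl2 had steady levels within each group. It stood at 225, 206 and 228 CPM in healthy blood, 217, 221 and 215 CPM in LLC blood, and 936, 942 and 882 CPM in tumor. The blood groups did not differ beyond their spread (log2 -0.04 ± 0.11 SE, adjusted p = 0.822). The tumor level was 4.88-fold that of LLC blood (log2 2.29 ± 0.11 SE, adjusted p = 4.18e-07) and 4.75-fold that of healthy blood (adjusted p = 3.76e-07). LLC blood 1 did not stand apart for this gene.

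Jun, the founding JUN subunit, had the widest spread within a group. Healthy blood was at 593, 414 and 412 CPM, and tumor at 1443, 1566 and 1582 CPM. In LLC blood the first library held 378 CPM and the others 15.1 and 10.0 CPM, from 218 and 208 counts. The groups did not overlap: each LLC blood library was below each healthy library, and each tumor library was above all blood libraries. Jun rose in LLC tumor over LLC blood (log2 3.72 ± 1.17 SE, 13.2-fold, adjusted p = 0.0198), and the call was lost in a fit of those 6 libraries alone (adjusted p = 0.0515). Without LLC blood 1 the same change was 7.12 ± 0.29 SE on the log2 scale (adjusted p = 1.48e-06).

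Against healthy blood, the tumor level of Jun was 3.66-fold (log2 1.87 ± 1.08 SE) and was not called (adjusted p = 0.152). That fit shares its estimate of spread with LLC blood, where the SD was 211 CPM around a mean of 134 CPM, against SDs of 76.4 CPM in tumor and 104 CPM in healthy blood. In a fit of the tumor and healthy libraries alone the change was 1.86 with an adjusted p of 0.000133, and without LLC blood 1 it was 1.86 with an adjusted p of 5.48e-05.

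Junb and Jund encode JUN relatives that often temper the activity of JUN. Junb was at 538, 469 and 473 CPM in healthy blood, 494, 302 and 254 CPM in LLC blood, and 1009, 1151 and 967 CPM in tumor. Junb rose 3.43-fold over LLC blood (log2 1.78 ± 0.23 SE, adjusted p = 0.000114) and 2.39-fold over healthy blood (adjusted p = 0.000812). Jund was at 241, 183 and 162 CPM in healthy blood, 138, 88.6 and 77.1 CPM in LLC blood, and 455, 439 and 372 CPM in tumor. Its 3 groups did not overlap, in the order LLC blood, healthy blood, tumor. Jund rose 4.85-fold over LLC blood (log2 2.28 ± 0.25 SE, adjusted p = 4.36e-05) and 2.46-fold over healthy blood (adjusted p = 0.00105).

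Atf3 is a stress-induced factor that restrains inflammatory genes in macrophages, and Maff is a small MAF protein without an activation domain of its own. Atf3 was at 114, 87.4 and 94.4 CPM in healthy blood, 84.2, 57.1 and 59.8 CPM in LLC blood, and 1070, 587 and 554 CPM in tumor. It rose 13.1-fold over LLC blood (log2 3.72 ± 0.35 SE, adjusted p = 1.8e-05) and 8.75-fold over healthy blood (adjusted p = 3.77e-05). Maff had 10 to 25 counts per blood library (0.614 to 1.53 CPM) and stood at 91.1, 47.0 and 49.9 CPM in tumor. Maff rose 71.7-fold over LLC blood (log2 6.16 ± 0.47 SE, adjusted p = 4.7e-06) and 70.4-fold over healthy blood (adjusted p = 3.92e-06). By CPM both genes were highest in tumor 1, whereas Fos, Fosb and Junb were highest in tumor 2. CPM does not include the TMM factor of tumor 1 (0.798), on which the order for Junb depends.

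Batf went the other way. It encodes a bZIP protein that pairs with JUN proteins and works with IRF factors in lymphocytes and dendritic cells. Its levels were 23.6, 23.8 and 24.0 CPM in healthy blood and 29.8, 29.3 and 29.4 CPM in LLC blood. The tumor libraries held 8.13, 7.09 and 10.1 CPM, below every blood library. Batf fell by 1.60 ± 0.13 SE on the log2 scale against LLC blood (adjusted p = 8.6e-06) and by 1.32 ± 0.13 SE against healthy blood (adjusted p = 2.5e-05).

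**Figure D2:**
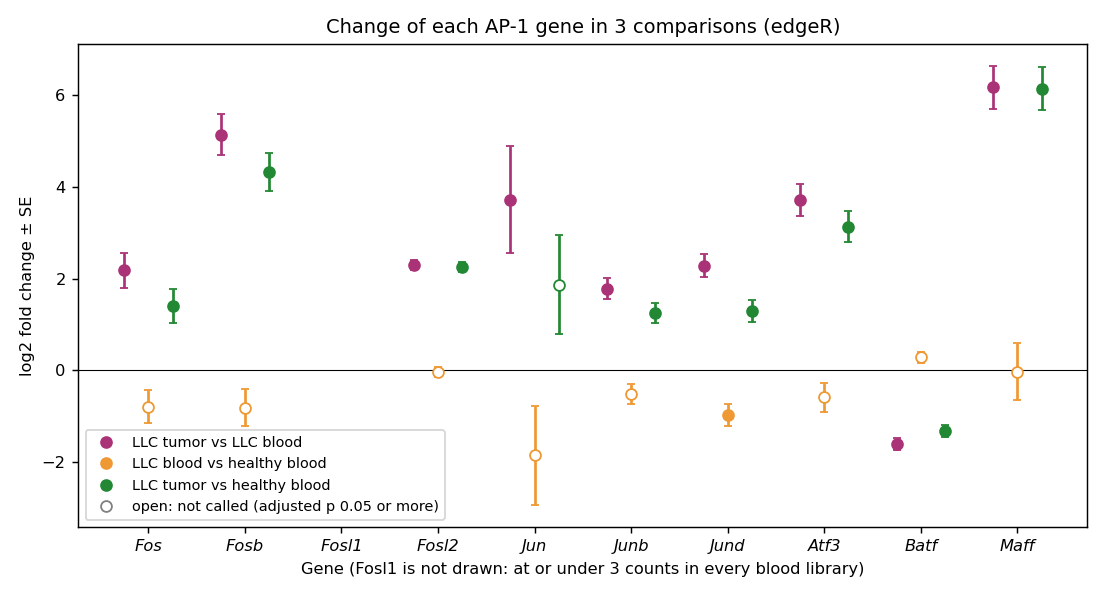
Change of each AP-1 gene in the 3 comparisons. The y axis is the log2 fold change with its SE from edgeR, the x axis is the gene, filled points were called and open points were not. Batf is the gene below 0 in both tumor comparisons, and Jun has the widest bars, with an SE of 1.17 against LLC blood.

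Promoter sequence is shown for 4 genes that are known immediate early or stress genes and whose window held a match, chosen after the matches were seen. The windows are the 250 bases before the start of the gene in RefSeq (GRCm38.p6), printed 5′ to 3′ in the direction of the gene. Capitals mark TGACG, the core of the CREB and ATF site, or the longer AP-1 and ATF site TGACNTCA. Fos lies at chr12:85473890-85477274 (+ strand) and its window at chr12:85473640-85473889. Jun lies at chr4:95049036-95052222 (- strand), window chr4:95052223-95052472. Junb lies at chr8:84976909-84978748 (- strand), window chr8:84978749-84978998. Atf3 lies at chr1:191170296-191183333 (- strand), window chr1:191183334-191183583.
Fos: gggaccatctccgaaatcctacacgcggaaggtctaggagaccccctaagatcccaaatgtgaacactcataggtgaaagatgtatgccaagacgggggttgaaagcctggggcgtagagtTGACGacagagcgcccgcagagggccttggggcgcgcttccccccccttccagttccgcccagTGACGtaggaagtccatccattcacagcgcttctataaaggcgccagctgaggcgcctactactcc
Jun: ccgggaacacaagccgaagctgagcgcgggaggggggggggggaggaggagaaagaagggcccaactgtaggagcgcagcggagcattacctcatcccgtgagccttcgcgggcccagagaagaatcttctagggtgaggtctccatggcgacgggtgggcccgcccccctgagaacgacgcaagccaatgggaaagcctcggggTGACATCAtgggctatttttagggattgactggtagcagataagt
Junb: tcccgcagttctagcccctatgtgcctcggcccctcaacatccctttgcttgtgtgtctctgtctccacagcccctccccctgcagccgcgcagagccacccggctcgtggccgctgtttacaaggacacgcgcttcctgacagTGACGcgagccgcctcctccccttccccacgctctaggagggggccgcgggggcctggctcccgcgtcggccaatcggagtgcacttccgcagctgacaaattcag
Atf3: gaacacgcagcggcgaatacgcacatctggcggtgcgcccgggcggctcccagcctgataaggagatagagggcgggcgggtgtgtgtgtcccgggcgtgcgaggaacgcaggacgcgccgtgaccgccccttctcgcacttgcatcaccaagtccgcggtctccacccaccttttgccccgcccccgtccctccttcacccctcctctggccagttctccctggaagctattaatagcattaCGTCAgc

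Fos held TGACG at 129 and at 66 bases before the start, Junb at 106, and Atf3 on the opposite strand at 7. Jun held TGACATCA at 45 bases before the start, a variant known from work on the Jun promoter as a site for JUN and ATF2. A window was found for 9 of the 10 genes, with 3 alternative windows for Maff and none for Fosl1. On either strand TGACG was in the windows of 6 of these 9 genes (Fos, Fosb, Junb, Atf3, Batf and Maff) and in 17.9% of all 32536 windows of this length. The gene counts take a match in any window of a gene, so Maff could match in 3, while the percentages are per window. The longer TGACNTCA, which contains TGACG where N is G, was in 2 of 9 (Jun and Maff) and in 7.43% of all windows. The classical AP-1 site TGANTCA was in none of the 9 and in 6.73% of all windows. The CArG box of serum response factor was in none of the 9 and in 1.48% of all windows, and in Fos the known element lies further upstream. TGACG was also in the window of Batf, which fell. A match is a description of letters only.

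LLC blood against healthy blood compares the family between circulating monocytes of mice with and without a tumor. The labels used here do not say how long samples were kept, and the part of blood handling in this comparison was not tested. Here 1 of the 10 genes, Jund, was called: it fell by 0.98 ± 0.24 SE on the log2 scale (adjusted p = 0.0176). Over all tested genes 23.6% were called, 14.0% higher and 9.61% lower. The Jund call was lost without healthy blood 1 (adjusted p = 0.0675), without LLC blood 2 (adjusted p = 0.0765) and without LLC blood 3 (adjusted p = 0.0749), and its direction held in each of these fits. Fos (log2 -0.79, adjusted p = 0.154), Fosb (-0.82, adjusted p = 0.175), Jun (-1.85, adjusted p = 0.25), Junb (-0.52, adjusted p = 0.117) and Atf3 (-0.59, adjusted p = 0.219) were not called. Batf was at 0.28 (adjusted p = 0.131), and Maff at -0.03 ± 0.62 SE (adjusted p = 0.988), a gene with too few counts in blood for a small change to be detectable. The groups did not overlap for Jun, Jund and Atf3, which were lower in every LLC blood library, and for Batf, which was higher, against 23.8% and 27.5% of all tested genes. For Fosl1 no fold is given, since both groups were at the floor.

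The count depended on LLC blood 1. Without it, 4 of the 10 genes fell in LLC blood: Jun by 5.26 ± 0.27 SE (adjusted p = 2.39e-05), Fos by 1.42 ± 0.22 SE (adjusted p = 0.00313), Jund by 1.25 ± 0.21 SE (adjusted p = 0.00503) and Junb by 0.85 ± 0.14 SE (adjusted p = 0.00425), all on the log2 scale. In that fit 20.4% of all tested genes were called, 13.0% higher and 7.36% lower. Fosb was at -1.25 with an adjusted p of 0.056, and Fosl2 stayed at -0.03 (adjusted p = 0.917). LLC blood 1 and the other LLC blood libraries differ in fibroblast markers, in neutrophil granule genes and in Hspa1a as well as in Jun, and the part of these in the Jun level was not tested. The count also moved with LLC tumor 1, which enters through the shared estimate of spread. Without it 2 of the 10 genes fell in LLC blood, Jund (log2 -1.03) and Atf3 (log2 -0.64, adjusted p = 0.0122), and calls over all genes went from 2917 to 5064 (39.4%, with 22.4% lower). LLC blood enters both this comparison and that of tumor with LLC blood, so the fall in the one and the rise in the other share 3 libraries.

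In the comparison of tumor with healthy blood, which uses no LLC blood level, 8 of the 10 genes rose in tumor and Batf fell, with Jun not called as described. Of the 9 genes that passed the filter in blood alone, 7 rose. Over all tested genes 66.5% were called, 33.5% higher and 33.0% lower. All 10 genes were without overlap between the groups, 9 above and 1 below. Over all tested genes, 26.9% lay wholly above and 43.7% wholly below in tumor. The smallest gap between the groups was that of Fos, whose lowest tumor library was 1.50 times the highest healthy one. For Maff that ratio was 30.7.

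Other bZIP genes that can pair or compete with AP-1 changed in both directions. In LLC tumor against LLC blood 6 of 9 rose and 3 fell, with a median log2 fold change of 0.41, against 3.00 for the AP-1 genes (2.29 without Fosl1) and -0.03 for all tested genes. Jdp2, a JUN dimerization repressor, rose by 2.78 ± 0.16 SE on the log2 scale (adjusted p = 9.72e-07), Maf by 2.55 (adjusted p = 1.54e-06) and Mafk by 0.78 (adjusted p = 0.0315). The Mafk call was lost in 7 of 20 alternatives, including the fits without any one LLC blood library. Batf3, the dendritic cell relative of Batf, fell by 3.55 on the log2 scale in tumor against healthy blood (adjusted p = 9.17e-07) and by 1.03 in LLC blood against healthy blood (adjusted p = 0.00338). In tumor against healthy blood 5 of the 9 rose and 2 fell, and in LLC blood against healthy blood 1 rose and 3 fell. Over all tested genes, 29.6% were called higher and 31.7% lower in LLC tumor against LLC blood. The shares were 33.5% and 33.0% in tumor against healthy blood, and 14.0% and 9.61% in LLC blood against healthy blood.

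The kinases and transcription factors upstream of AP-1 showed no common direction. In LLC tumor against LLC blood 9 of 24 rose and 5 fell, with a median of 0.05. Over all tested genes 29.6% were called higher and 31.7% lower. Map2k4, a kinase that activates JNK, rose by 1.47 on the log2 scale (adjusted p = 1.56e-06), and Elk1, a serum response cofactor at the Fos promoter, by 1.17 (adjusted p = 1.9e-05). Mapk14, the p38 kinase, fell by 1.32 (adjusted p = 1.06e-06) and Map3k5, which lies upstream of p38 and JNK, fell by 1.15 (adjusted p = 8.55e-07). In LLC blood against healthy blood 5 of 24 rose and edgeR called none lower (1 at an unadjusted p below 0.05, 1 with DESeq2 and 5 with limma-voom). Elk4, a relative of Elk1, was higher by 2.08 on the log2 scale (adjusted p = 2.3e-05). In tumor against healthy blood 10 rose and 6 fell. The shares of all tested genes were 33.5% higher and 33.0% lower there, and 14.0% and 9.61% in LLC blood against healthy blood.

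Immediate early genes outside the family were mostly higher in tumor. In LLC tumor against LLC blood 18 of 20 rose and 1 fell, with a median of 2.94, which becomes 2.82 when 1 floor gene is given its lower bound. Over all tested genes 29.6% were called higher and 31.7% lower. Of the 20, 1 passed the filter only through tumor, and 17 of the other 19 rose (median 2.25). Ier3 rose by 5.84 (adjusted p = 5.14e-08), Egr2 by 5.78 (adjusted p = 6.43e-06), Nr4a2 by 4.97 (adjusted p = 2.3e-06) and Myc by 4.88 (adjusted p = 3.09e-06), all on the log2 scale. In tumor against healthy blood 14 of 20 rose and 1 fell, with a median of 1.79, against 33.5% higher and 33.0% lower of all tested genes. In LLC blood against healthy blood 1 rose and 5 fell, with a median of -0.77, and without LLC blood 1 there were 10 that fell, against 12 without LLC tumor 1. Of all tested genes 14.0% were called higher and 9.61% lower. The share called lower was 7.36% without LLC blood 1 and 22.4% without LLC tumor 1. Egr1, a growth and stress response factor, fell by 2.47 (adjusted p = 0.00401), Ier2 by 0.99 (adjusted p = 0.0122), Btg2 by 0.73 (adjusted p = 0.00869) and Klf2 by 0.64 (adjusted p = 0.0339). Without LLC blood 1 Egr1 fell by 3.11 (adjusted p = 0.00097) and Ier2 by 1.34 (adjusted p = 0.000261), and Klf2 was not called (adjusted p = 0.101).

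Genes known as AP-1 targets in other systems were higher in tumor. Of 22 such genes 21 rose in LLC tumor against LLC blood and 21 rose against healthy blood, with medians of 5.32 and 5.55, or 5.13 and 5.03 with floor genes at their bounds. The shares of all tested genes called higher were 29.6% and 33.5%. Of the 22, 4 passed the filter only through tumor and so had to differ. Among the other 18, 17 rose in each comparison, with medians of 4.50 and 3.54. The chemokine gene Cxcl2 was at 1728 ± 486 CPM (SD, n = 3) in tumor and 2.01 ± 2.40 CPM in LLC blood. Ptgs2, the inducible cyclooxygenase, was at 1746 ± 276 CPM (SD, n = 3) in tumor and 2.48 ± 3.00 CPM in LLC blood. Their adjusted p-values were 4.84e-06 and 3.1e-06. Vegfa, the angiogenic growth factor, rose by 9.36 on the log2 scale (adjusted p = 1.97e-06). The matrix protease Mmp3 had 3 counts or fewer per LLC blood library, and its tumor level was at least 498-fold higher. Without LLC blood 1 the changes were larger for Cxcl2 (11.5), Ptgs2 (11.3) and Vegfa (10.6). In LLC blood against healthy blood edgeR called none of the 22 (5 were lower at an unadjusted p below 0.05), limma-voom called 9 lower and DESeq2 called 2 lower and 1 higher. Without LLC blood 1 edgeR called 3 lower, and without LLC tumor 1 it called 7 lower. The shares of all tested genes called lower were 9.61% with all libraries, 7.36% without LLC blood 1 and 22.4% without LLC tumor 1. Binding of AP-1 at these genes was not measured in these libraries.

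**Figure D3:**
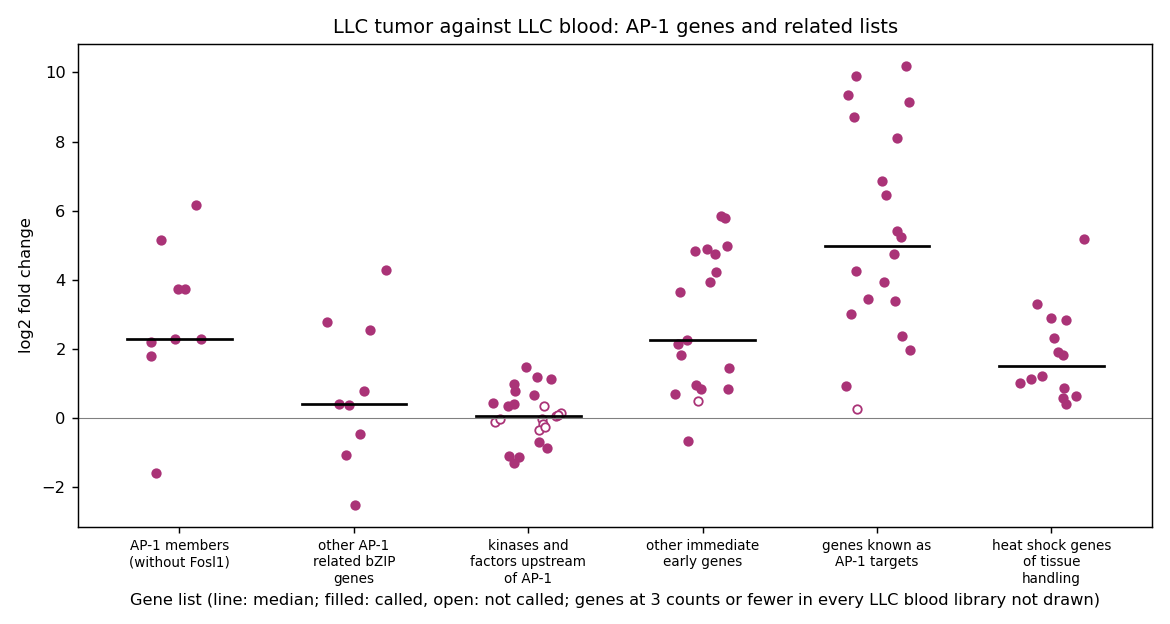
Change in LLC tumor against LLC blood for the AP-1 genes and 5 related lists. The y axis is the log2 fold change, each point is a gene, filled points were called, and the line is the median of the genes drawn. Genes at 3 counts or fewer in every LLC blood library are left out. The medians run from 0.05 for upstream kinases and factors to 4.99 for known targets. Some genes drawn passed the filter only through tumor, and among the 18 targets that passed in blood alone the median was 4.50.

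Handling of tissue bears on immediate early and heat shock genes alike, because dissociation and warming are known to induce both. All 14 heat shock and chaperone genes of the list rose in LLC tumor against LLC blood, with a median of 1.51, and 8 of 14 rose against healthy blood, with a median of 1.02. The shares of all tested genes called higher were 29.6% and 33.5%. Of the 14, 1 passed the filter only through tumor. Among the other 13, 13 and 7 rose, with medians of 1.205 and 0.975. Against healthy blood 7 of the 14 lay wholly above in tumor by CPM and 1, Hspe1, wholly below, against 26.9% and 43.7% of all tested genes. The order for Hspe1 depends on the scaling of tumor 1, whose TMM factor was 0.798. The chaperone gene Hsp90aa1 rose by 2.84 ± 0.29 SE on the log2 scale over LLC blood (adjusted p = 2.95e-05) and by 2.42 ± 0.29 SE over healthy blood (adjusted p = 6.33e-05). Hsph1 rose by 2.32 (adjusted p = 0.000144) and by 1.81 (adjusted p = 0.000525) in the same comparisons. Hspa1a, an inducible chaperone of the same response, was at 981, 515 and 418 CPM in healthy blood, 419, 17.4 and 10.9 CPM in LLC blood, and 1920, 731 and 987 CPM in tumor.

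Hspa1a in tumor overlapped healthy blood (log2 1.17 ± 1.13 SE, adjusted p = 0.386), as did Hspa1b (0.69, adjusted p = 0.574). Against LLC blood Hspa1a rose by 3.30 (adjusted p = 0.0406) and Hspa1b by 2.89 (adjusted p = 0.0443). These calls were lost in 9 and 10 of 20 alternatives, and without LLC blood 1 the changes were 6.68 and 5.73. The 2 genes are near-identical copies, so reads may be split between them. In LLC blood against healthy blood 2 of 14 genes of the list fell, Hspe1 by 0.47 (adjusted p = 0.00245) and Dnajb1 by 0.65 (adjusted p = 0.0448, and 0.07 without LLC blood 1), and 6 fell without LLC tumor 1. Of all tested genes 9.61% were called lower, and 22.4% without LLC tumor 1. No tumor group with another way of handling is among the labels, so tissue of origin and tissue handling cannot be told apart for the rise of the AP-1 genes. Tumor bearing and handling of the blood likewise cannot be told apart for the lower levels in LLC blood.

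Within the tumor group Jund, Atf3 and Maff were highest in tumor 1, as were most of the listed immediate early genes outside the family. Hspa1a, Hspa1b, Hsp90aa1 and the other heat shock genes of the list were highest there too, except Hsp90ab1, Hspd1 and Hspe1, which were lowest in tumor 1. Fos, Fosb, Fosl2, Junb and Egr1 were highest in tumor 2, and Fosl1, Jun, Batf and the fibroblast markers were highest in tumor 3. These ranks are of CPM by library total, without the TMM factors (0.798 for tumor 1 against 1.00 and 0.968). The order of close values, such as those of Jun and Junb, depends on that scaling. With 3 libraries this is a description only.

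**Figure D4:**
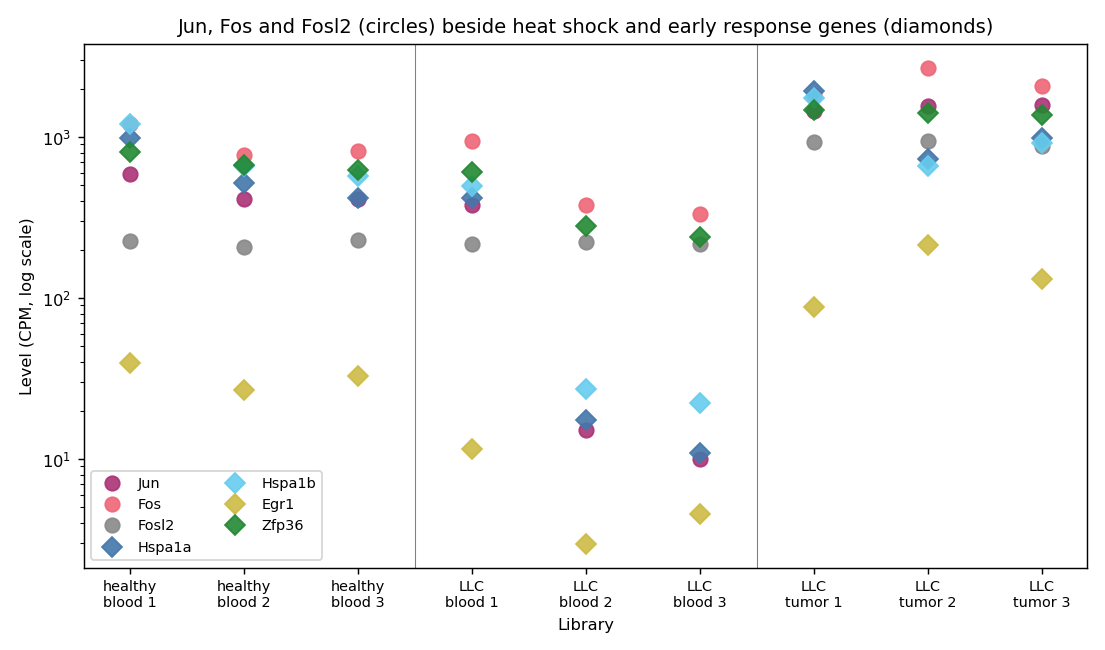
Levels of Jun, Fos and Fosl2 beside Hspa1a, Hspa1b, Egr1 and Zfp36 in each library. The y axis is CPM on a log scale, the x axis is the library, circles are AP-1 genes and diamonds are genes named as most alike to Jun or Fos. Jun, Hspa1a and Hspa1b fall together in LLC blood 2 and 3, to between 10.0 and 27.4 CPM, while Fosl2 stays between 206 and 228 CPM in all blood libraries.

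Markers of other cells moved with the tumor group. The summed level of the 7 fibroblast markers was 938, 3470 and 3929 CPM in tumor against at most 16.9 CPM in healthy blood. The 6 macrophage markers summed to 892 to 1465 CPM in tumor and 325 to 359 CPM in blood. Adgre1 made up most of the blood sum (290 to 340 CPM) and was lower in tumor (164 to 212 CPM), while others were higher there: C1qa was at 1.38 to 10.7 CPM in blood and 136 to 245 CPM in tumor, and Mrc1 at 6.13 to 26.4 CPM and 282 to 496 CPM. The 5 epithelial carcinoma markers summed to 63.1 to 101 CPM in tumor and 1.35 to 2.73 CPM in blood. Cdh1 alone was at 52.8, 58.3 and 39.2 CPM in the tumor libraries, and Epcam and Krt19 were at or under the floor in every library. The dendritic list summed to 6.23 to 9.31 CPM in tumor against 24.3 to 38.9 CPM in LLC blood and 77.6 to 84.7 CPM in healthy blood. Flt3 and Cd209a carried most of that sum in healthy blood, and Flt3 was at 2.35 to 3.28 CPM in tumor. Clec9a was at 0.903, 4.17 and 3.37 CPM in tumor, 1.25 to 1.53 CPM in LLC blood and 4.61 to 4.72 CPM in healthy blood. T cell markers summed to 0.993 to 1.86 CPM in tumor, 3.04 to 4.59 CPM in LLC blood and 31.1 to 137 CPM in healthy blood. B cell markers summed to 163 CPM in healthy blood 2, whereas tumor held 1.72 to 1.95 CPM, where 3 of the 5 had no count. The part of such cells in the level of any AP-1 gene was not tested.

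For each gene the 3 genes with the most alike profile over the 9 libraries were listed, by the root mean square difference of log2 levels centred on the mean of each gene, among 8510 genes (8511 for Fosl1). Smaller values are more alike. By this measure Jun had the least close neighbours: Hspa1a at 0.531, Hspa1b at 0.753 and Egr1 at 1.11. The measure is not scaled to the range of a gene, so its size does not compare AP-1 genes of wide and narrow range. The nearest to Fos were Zfp36 (0.200), Jund (0.254) and Junb (0.303), and the nearest to Jund were Zfp36 (0.159), Pnrc1 (0.198) and Rhob (0.210). Junb was nearest to Ell, Malat1 and H3f3b (0.228 to 0.233), and Fosb to Pmp22, Fcrls and Rgl1 (0.291 to 0.345). Fosl1 was nearest to Mt2, Pgf and Slc6a8 (0.193 to 0.254), and Fosl2 to Bcl2l1, Snx18 and Pdk1 (0.117 to 0.127). Atf3 was nearest to Hmox1, Ms4a7 and Rab20 (0.198 to 0.225), and Maff to Flrt3, Cd14 and Clec4n (0.242 to 0.285). Batf was nearest to Pik3cd, Ttc7 and Sp100 (0.098 to 0.109).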

How the data were processed

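RNA was extracted with TRIzol, made into TruSeq libraries and sequenced on a HiScanSQ, per the labels' protocols. The authors deposited a table of estimated counts (expected counts, not normalized) for 24411 entries, of which 8.56% to 9.73% of values per library were not whole, and a table of CPM values for 10693 genes. Per the submitters' processing notes, the build was mm10 and the tools included Trim Galore, cutadapt 3.4, STAR 2.6.1d, Salmon 1.9.0 and edgeR, with no role given for each. In the tables the heads of the blood columns include BM, taken here as blood monocyte because the sample descriptions say so. Whole reads were recovered from the CPM table: divided by the value of a single read, 100% of the entries came out whole (tolerance 0.01 reads) and 100% equalled the rounded counts.

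Counts were rounded and fitted with edgeR 4.0.16 in R 4.3.3 (quasi-likelihood test, TMM, filterByExpr, group as the only term, 9 libraries). This kept 12337 of 18544 genes with a count. SEs were taken from the fold change and its F statistic. DESeq2 1.42.0 and limma 3.58.1 served as alternatives. The pipeline was tested on simulated data. The AP-1 genes, the gene lists and the naming rule were chosen with earlier results of these data known. The rule names every AP-1 gene, at most 4 called genes per list and comparison with the largest change and a mean of at least 10 CPM, and the 3 most alike genes per AP-1 gene (pseudocount 1 CPM). A gene that the rule names is not reported here. The floor was 3 counts per library (0.145 to 0.287 CPM), and a group was at it where none of its libraries exceeded it. Promoter windows came from RefSeq, cut to the 250 bases before the start. The marker lists covered monocytes, macrophages, neutrophils, T, B, NK, dendritic and mast cells, fibroblasts, endothelial cells and epithelial carcinoma cells. Neutrophil markers summed to 139 to 377 CPM, NK markers to 0.778 to 362 CPM, mast cell and basophil markers to 0.184 to 10.5 CPM and endothelial markers to 4.60 to 17.5 CPM over the 9 libraries.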

Additional observations from a re-analysis of the deposited data

How the results depend on the processing

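Each result was recomputed under 20 alternatives. For the AP-1 genes, 546 of the recomputed changes kept their direction and their side of the threshold, 7 lost the call, 18 gained it and 6 changed sign. Every loss, gain or change of sign concerned LLC blood against healthy blood, except those of Jun named here. In LLC tumor against LLC blood Jun was not called at an adjusted p under 0.01 (3.72) or with only the 6 libraries compared (3.72), and leaving out a library gave 3.15 to 7.12. In tumor against healthy blood Jun was called with limma-voom (1.90) and with only 6 libraries (1.86), and leaving out a library gave 1.75 to 2.05. DESeq2 gave no adjusted p for Jun, so its 8 called AP-1 genes in LLC tumor against LLC blood are the others that rose.

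In LLC blood against healthy blood the number of AP-1 genes called lower was 6 with limma-voom, 2 with only 6 libraries, 0 at an adjusted p under 0.01, 0 with a minimum log2 fold change of 1, and 0 to 4 leaving out a library. The number called higher was 1 with limma-voom, 1 with only 6 libraries, and 0 to 1 leaving out a library. Limma-voom called Fos (-1.12), Fosb (-0.92), Jun (-4.72), Junb (-0.71), Atf3 (-0.66) and Batf (0.28), and the fit of 6 libraries called Atf3 (-0.60) and Batf (0.28). Both also called Jund lower, as the main fit did. Jund (-0.98) was lost under both stricter thresholds. Leaving out a library gave Fos -1.42 to -0.53, Jun -5.26 to -1.29, Junb -0.85 to -0.34, Jund -1.25 to -0.80, Atf3 -0.77 to -0.47 and Batf 0.23 to 0.30. Fosb ranged from -1.25 without LLC blood 1 to -0.345 without healthy blood 1. Maff (-0.36 to 0.41 leaving out a library) changed sign with library totals (0.007), DESeq2 (0.003), limma-voom (0.032), and without healthy blood 3 (0.41) or LLC blood 3 (0.29). The cause of these differences was not tested. Over all genes, calls in this comparison were 2917, against 5884 with limma-voom, 4889 with 6 libraries and 1386 at the stricter p. They were 769 with a minimum log2 fold change of 1 and 5064 without LLC tumor 1. The minimum change of 1 kept 3538 of 7566 calls in tumor against LLC blood and 3989 of 8208 in tumor against healthy blood. Scaling by library totals moved the median log2 fold change of all genes from -0.034 to -0.229 in tumor against LLC blood.

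The libraries share replicate numbers, but same-numbered libraries did not deviate together in each pair (correlations of -0.102 to 0.298, and not each library correlated best with its own number). With the replicate block 3 AP-1 genes were called lower in LLC blood: Jund, Junb (-0.57) and Atf3 (-0.60). Maff was at 0.002 there. The block called 9 immediate early genes, 3 targets and 4 heat shock genes lower and 3 upstream genes higher there, and 2 immediate early genes lower in tumor against healthy blood.

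A minimum log2 fold change of 1 gave 3 bZIP and 3 upstream genes higher and 3 upstream and 0 immediate early genes lower in tumor against LLC blood, and 3 bZIP and 5 upstream genes higher and 2 upstream genes lower against healthy blood. Upstream genes lower in tumor against LLC blood numbered 8 with upper-quartile factors, 10 with library totals, 9 with limma-voom and 5 to 8 leaving out a library. At the stricter p no immediate early gene (0) was lower there. Lower in tumor against healthy blood were 2 immediate early genes with upper-quartile factors, library totals, no filter, limma-voom, 6 libraries or the whole reads of the CPM table (an alternative chosen after seeing the data), and 1 to 2 leaving out a library; library totals also gave 1 target and 1 heat shock gene. In LLC blood against healthy blood the number of genes called lower was, with limma-voom, 14 immediate early, 9 target, 7 heat shock and 5 upstream genes (8 upstream and 2 bZIP genes higher). With 6 libraries it was 10, 7, 6 and 5 (2 bZIP genes higher). DESeq2 gave 9 immediate early, 2 target and 1 upstream gene lower and 1 target higher, upper-quartile factors 2 targets and 1 upstream gene, and library totals 1 target and 1 upstream gene. The stricter p gave 3 immediate early, 1 heat shock and 1 bZIP gene lower and 2 upstream and 0 bZIP genes higher. The minimum change gave 2, 0 and 1 lower, and 1 upstream, 0 bZIP and 0 immediate early genes higher. Leaving out a library gave 3 to 12 immediate early, 0 to 7 target, 1 to 6 heat shock, 0 to 7 upstream and 1 to 4 bZIP genes lower, and 2 to 5 upstream and 0 to 1 bZIP genes higher. Among the 1060 recomputed changes of named list genes 76 lost the call and none changed sign. Fosl1 and Maff in blood rest on few counts, so small changes of either were not detectable at this depth.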
